A study of Mus musculus with 8 samples.

Results

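Among the miRNAs of the imprinted Dlk1-Dio3 locus, 52 mature miRNAs were measured in the pubertal mouse mammary gland, out of 611 mouse miRNAs on the array. The rule for membership was the name: they are the unstarred miRNAs of this locus on chromosome 12. Micro-dissected stroma was hybridised on 3 arrays, mature ducts on 2 arrays and terminal end buds (TEBs) on 3 arrays. All tissue came from female mice of 5 weeks, at which age TEBs, the club-shaped growing tips of the ducts, advance through the fat pad. Every mouse carried a green fluorescent protein reporter driven by the beta actin promoter on the FVB/n background, by which the ductal tree was seen and cut out, and the labels give no treatment for any group. The stroma was distal to the ducts, and the sources used here do not say whether a sample came from 1 mouse or from several pooled mice, so p-values measure the spread between these samples, which may be technical.

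The Dlk1-Dio3 region is imprinted: the protein-coding genes Dlk1, Rtl1 and Dio3 are active on the chromosome inherited from the father. The long non-coding RNAs Meg3, Rian and Mirg, and the miRNAs among and downstream of them, are read from the chromosome inherited from the mother. Its miRNAs are known from the embryo, placenta and brain, and miR-127 is known for pairing with the Rtl1 transcript made from the opposite strand. An miRNA acts by pairing with messenger RNAs mainly through its seed, bases 2 to 8 counted from its 5′ end. Each hairpin gives a 5p and a 3p strand, of which usually one accumulates.

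Mature sequences for 49 of the 52 members were found in RefSeq (build GRCm38.p6), 17 under the same name and 32 under the name of the arm that an older name stands for by naming convention. The arm was not checked against the probe sequences of the array, so for those 32 the printed strand and seed rest on that convention. All 49 lay on the plus strand of chromosome 12, between position 109563710 and position 109743784, a stretch of 180.1 kb between Dlk1 and Dio3. The 11 members detected on at least 1 array are printed 5′ to 3′ in the order of their positions, because every member tested between tissues is among them. Capitals mark the seed.
mmu-miR-337-5p, chr12:109585818-109585839: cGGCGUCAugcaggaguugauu
mmu-miR-540-5p, chr12:109586085-109586107: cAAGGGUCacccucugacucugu
mmu-miR-127, chr12:109592888-109592909: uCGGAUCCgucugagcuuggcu
mmu-miR-434-3p, chr12:109594565-109594586: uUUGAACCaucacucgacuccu
mmu-miR-379, chr12:109709065-109709085: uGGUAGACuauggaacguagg
mmu-miR-329, chr12:109713541-109713562: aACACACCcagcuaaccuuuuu
mmu-miR-494, chr12:109715367-109715388: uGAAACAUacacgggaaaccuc
mmu-miR-376a, chr12:109723824-109723844: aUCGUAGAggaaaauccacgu
mmu-miR-300, chr12:109724363-109724384: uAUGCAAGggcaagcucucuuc
mmu-miR-154, chr12:109738438-109738459: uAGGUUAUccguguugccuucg
mmu-miR-410, chr12:109743764-109743784: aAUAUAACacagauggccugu

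No seed was shared between any of the 49 matched members. In the RefSeq table the seed of miR-329 was also that of miR-362-3p, the seed of miR-379 that of miR-1193-5p, and the seed of miR-410 that of miR-344d-3p and miR-344e-3p. Members detected on at least 1 array had a median GC content of 47.6%, from 38.1% to 59.1%. Matched members detected on no array had a median of 48.9%, from 23.8% to 72.7%.

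Most of the locus gave no signal above the detection limit in any of the tissues. Detection is the flag set by the scanner software for each miRNA on each array. Of the 52 members, 7 were detected on all 8 arrays (13.5%), 4 on some arrays, and 41 on none (78.8%). Detection on at least 1 array was 21.2% of the members, against 33.2% of all 611 mouse miRNAs (203 miRNAs). The array also held 35 miRNAs of the Sfmbt2 intron, another large imprinted miRNA cluster, of which 1 was detected on any array. The fibroblast-linked miR-199 and miR-214 group had 4 of its 5 miRNAs detected on all arrays.

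The detected members lay at several places along the locus. Neither strand of miR-770, in a Meg3 intron, was detected, and neither miR-341 nor miR-370, in the Rian region, was detected. Between Meg3 and the group antisense to Rtl1, miR-337-5p was detected on all arrays and miR-540-5p on 4 of 8. In the group antisense to Rtl1, a gene derived from a retrotransposon and needed in the placenta, miR-127 and miR-434-3p were detected on all 8 arrays and the remaining 4 of 6 on none. In the long run that leads from miR-379 to miR-410 and ends in Mirg, 7 of 36 members were detected on at least 1 array, and 4 of these (miR-379, miR-329, miR-300 and miR-154) on all 8. By RefSeq gene spans, 3 of the 7 members detected everywhere lay within the Rtl1 span, 1 within the Mirg span, and 3 within none of Meg3, Rtl1, Rian and Mirg.

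**Figure D1:**
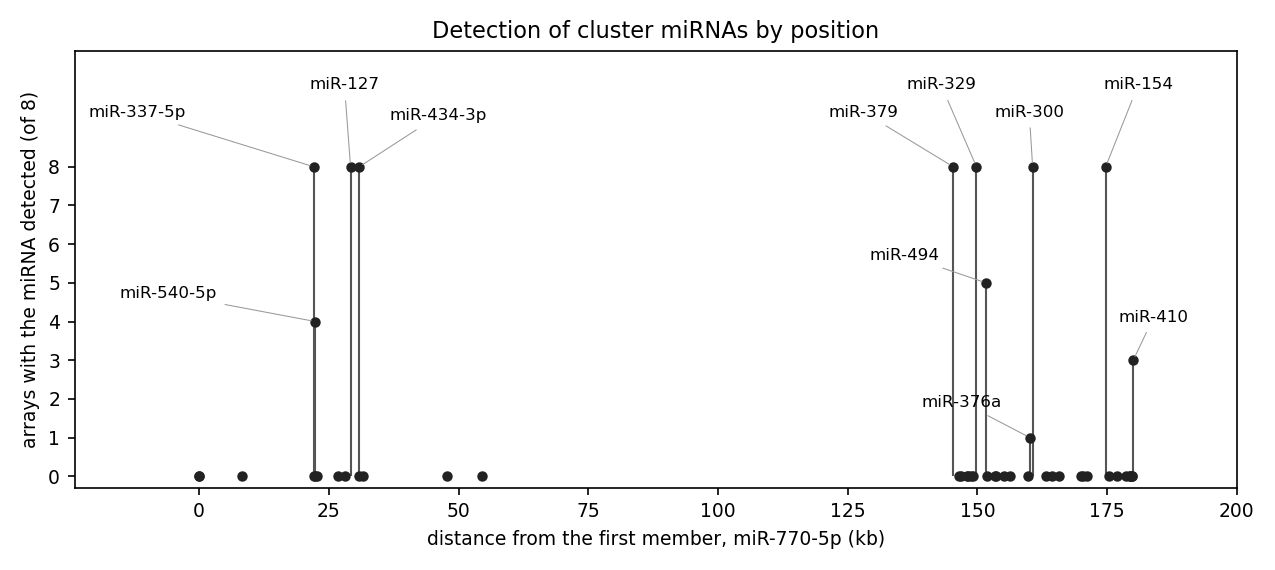
Detection of the 49 members with a RefSeq position. The x axis gives the distance in kb from the first member, the y axis the number of arrays (of 8) on which the miRNA was detected, and each point is 1 mature miRNA. The 7 members at 8 arrays lie towards both ends of the locus, with members at 0 between and around them.

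Where the array held both strands of a hairpin, not more than 1 strand was detected. Of miR-337 and of miR-540 the 5p strand was detected and the 3p strand was not. Of miR-434 the 3p strand was detected and the 5p strand was not. For comparison of the strands, the partners that stayed undetected read as follows, again with the seed in capitals.
mmu-miR-337-3p, chr12:109585850-109585871: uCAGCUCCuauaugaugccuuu
mmu-miR-540-3p, chr12:109586122-109586141: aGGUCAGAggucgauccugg
mmu-miR-434-5p, chr12:109594528-109594549: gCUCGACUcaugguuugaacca
Neither strand was detected for miR-369, miR-380, miR-409 and miR-770. miR-154 was detected on every array, its partner miR-154* on none.

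The 41 members detected on no array were mmu-miR-134, mmu-miR-136, mmu-miR-299, mmu-miR-323-3p, mmu-miR-337-3p, mmu-miR-341, mmu-miR-369-3p, mmu-miR-369-5p, mmu-miR-370, mmu-miR-376b, mmu-miR-376c, mmu-miR-377, mmu-miR-380-3p, mmu-miR-380-5p, mmu-miR-381, mmu-miR-382, mmu-miR-409-3p, mmu-miR-409-5p, mmu-miR-411, mmu-miR-412, mmu-miR-431, mmu-miR-433, mmu-miR-434-5p, mmu-miR-485, mmu-miR-487b, mmu-miR-495, mmu-miR-496, mmu-miR-539, mmu-miR-540-3p, mmu-miR-541, mmu-miR-543, mmu-miR-544, mmu-miR-665, mmu-miR-666-5p, mmu-miR-667, mmu-miR-668, mmu-miR-673-5p, mmu-miR-679, mmu-miR-758, mmu-miR-770-3p and mmu-miR-770-5p. Their background-subtracted, unscaled signals ran from -39.9 to 19.2 units. Of these, 25 were below 0 on every array, and 3 (miR-337-3p, miR-369-5p and miR-668) were above 0 on every array. Their levels were not measurable at this sensitivity, which does not show that they were absent.

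The detected members were weak. By mean unscaled signal over the arrays, miR-379 ranked 72 among the 108 mouse miRNAs detected on all 8 arrays, miR-154 ranked 89, miR-300 ranked 94, miR-329 ranked 97, miR-434-3p ranked 100 and miR-127 ranked 102. miR-337-5p ranked 108, the lowest of them. Together the 7 made up 0.40% to 0.49% of the summed positive signal on the stroma arrays, 0.45% and 0.49% on the duct arrays, and 0.24% to 0.30% on the TEB arrays. Probes of different miRNAs differ in brightness, so this order describes signals and not copies.

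On each array the array design also held 7 negative control probes, and the signals of the members overlapped their range. The median of the 7 control probes was 15.6 to 17.2 units on the stroma arrays, 22.9 and 13.9 units on the duct arrays, and 10.8 to 14.0 units on the TEB arrays, before scaling. All 7 members were above that median on every array but TEB 1, where 6 were. Above the highest control probe, the same probe on every array, lay 2, 2 and 0 of the 7 members on the stroma arrays, 0 and 3 on the duct arrays, and 1, 1 and 0 on the TEB arrays. Above the second highest lay 7, 5 and 7 members on the stroma arrays, 6 and 7 on the duct arrays, and 5 on each TEB array. The control median was thus higher on each stroma array than on any TEB array, as was the summed signal of the 7 members, and its part in the differences given for the members was not tested.

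**Figure D2:**
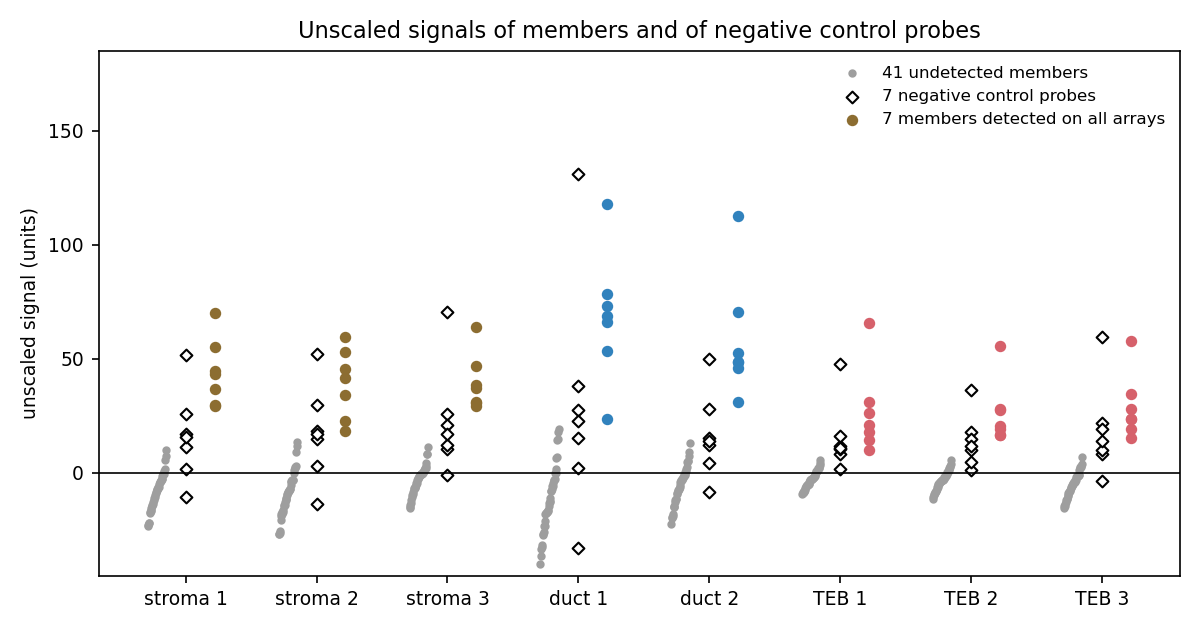
Unscaled background-subtracted signal in units (y axis) on each array (x axis). Grey points are the 41 undetected members, open diamonds the 7 negative control probes and coloured points the 7 members detected on all arrays. The coloured points overlap the range of the diamonds on every array, and the grey points reach lower on stroma and duct arrays, down to -39.9 units, than on TEB arrays.

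For comparison between tissues each array was scaled to a common 75th percentile over the 108 mouse miRNAs detected on all arrays, and the level of a miRNA is given as its scaled signal. A miRNA was tested if all arrays of any 1 tissue detected it, which held for 9 members among 167 mouse miRNAs, and log2 scaled signals were compared by limma with Benjamini-Hochberg adjustment over the 167. The tissues matched their labels by epithelial markers, the miR-200 and miR-183 families, miR-205 and miR-203. Of these 10 miRNAs, none was detected on every stroma array and 8 were detected on all arrays of ducts and of TEBs. Fibroblast and smooth muscle markers did not set stroma apart in this way: of 6 miRNAs, 5 were detected on every array of all tissues. Of the 5 tested, 1 was higher and 3 were lower in stroma than in TEBs at an adjusted p under 0.05 from limma. Against ducts, 0 were higher and 2 were lower in stroma. The scaled signals of this list summed to 4001 to 4183 in stroma, 4873 and 5044 in ducts and 4066 to 5239 in TEBs. Which cells of the epithelial fractions gave these signals was not tested. The 3 neuronal miRNAs (miR-124, miR-9 and miR-9*) were detected on no array, and their scaled signals were at or below 0.

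Stroma and ducts gave more summed signal from these miRNAs than TEBs did. The summed scaled signal of the 7 members detected everywhere averaged 341.5 ± 32.3 over the stroma arrays (SD, n = 3), 345.0 ± 22.7 over the duct arrays (SD, n = 2) and 191.6 ± 18.9 over the TEB arrays (SD, n = 3). The lowest stroma array stood at 316.2 and the lower duct array at 328.9, while the highest TEB array stood at 211.9. Before scaling TEBs were also the lowest, with 275.3 to 309.5 in stroma, 410.0 and 481.5 in ducts and 184.5 to 202.7 in TEBs. With the 75th percentile taken over all mouse miRNAs the sums were 267.1 to 388.2 in stroma, 257.8 and 318.6 in ducts and 202.3 to 259.5 in TEBs, so that stroma still lay above TEBs on every array while ducts and TEBs overlapped. A lower signal in a dissected tissue cannot be told apart from fewer cells that make the miRNA.

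mmu-miR-434-3p, one of the Rtl1-antisense miRNAs, differed most among the 7 members detected on every array. Its scaled signal was 37.8, 49.9 and 42.5 on the stroma arrays, 51.5 and 39.1 on the duct arrays, and 10.2, 15.7 and 20.3 on the TEB arrays. All stroma and duct arrays thus lay well above all TEB arrays, and stroma and ducts overlapped. The level in stroma was 2.91-fold that in TEBs (log2 difference 1.54, standard error 0.27, adjusted p = 0.0034 from limma).

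mmu-miR-329, which comes from the first part of the miR-379 to miR-410 run, had nearly the same pattern. Its scaled signal was 45.5, 63.9 and 52.3 on the stroma arrays, 54.8 and 39.1 on the duct arrays, and 14.7, 19.5 and 24.8 on the TEB arrays. The TEB arrays again lay below all others. Stroma was 2.77-fold above TEBs (log2 difference 1.47, standard error 0.24, adjusted p = 0.0028).

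mmu-miR-154 lies at the far end of the run, within the RefSeq span of Mirg. It reached 56.6, 71.6 and 63.8 on the stroma arrays, 58.7 and 56.5 on the duct arrays, and 21.3, 26.3 and 36.3 on the TEB arrays. Stroma and ducts overlapped, and neither overlapped TEBs. The level in stroma was 2.33-fold that in TEBs (log2 difference 1.22, standard error 0.20, adjusted p = 0.0030).

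mmu-miR-300 differed less. Its scaled signal was 44.4, 40.9 and 50.9 on the stroma arrays, 49.7 and 42.1 on the duct arrays, and 31.3, 26.7 and 29.3 on the TEB arrays. The TEB arrays were the lowest without overlap, at a log2 difference of 0.64 between stroma and TEBs (standard error 0.12, adjusted p = 0.0050). This call depended on the scaling: the adjusted p was 0.50 when the percentile was taken over all mouse miRNAs, 0.23 after quantile normalization, 0.077 without scaling and 0.27 in the authors' own normalized values.

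mmu-miR-337-5p, the dimmest of the 7, gave 30.2, 22.2 and 39.7 on the stroma arrays, 17.7 and 24.8 on the duct arrays, and 18.3, 15.6 and 16.1 on the TEB arrays. Stroma lay above TEBs on every array, while the duct arrays overlapped both. The log2 difference between stroma and TEBs was 0.84 (standard error 0.24, adjusted p = 0.020). Its adjusted p was 0.34 with the percentile over all mouse miRNAs and 0.21 after quantile normalization. It was 0.053 without stroma 1, 0.052 without TEB 1, 0.060 without TEB 2 and 0.063 without TEB 3.

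mmu-miR-540-5p was detected on all 3 stroma arrays, on duct 1 and on no TEB array. Its scaled signal was 21.2, 34.9 and 22.4 in stroma, 36.2 and 16.1 in ducts, and 0.487, 6.22 and 6.75 in TEBs, where it was not well above background. The geometric mean level in stroma was at least 5.77-fold that in TEBs, taking for each TEB array the higher of the probe's own signal and the lowest signal of any detected miRNA on that array (adjusted p = 0.018 for stroma against TEBs from limma). The size rested on TEB 1, without which it was at least 3.94-fold, and without stroma 2 the adjusted p was 0.057. For ducts over TEBs the same calculation gave at least 5.46-fold, with 1 of the 2 duct arrays detected, and at least 3.64-fold without duct 1, 8.20-fold without duct 2 and 3.73-fold without TEB 1. This miRNA entered the tests only because every stroma array detected it.

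mmu-miR-127 and miR-379 did not pass in this comparison. miR-127 gave 30.1, 27.3 and 41.9 on the stroma arrays, 40.2 and 36.8 on the duct arrays, and 26.6, 18.2 and 24.6 on the TEB arrays, so the lowest stroma array was just above the highest TEB array. Its log2 difference of stroma over TEBs was 0.51 (standard error 0.21, adjusted p = 0.071). miR-379, the brightest member, gave 71.6, 54.7 and 86.8 on the stroma arrays, 88.4 and 90.3 on the duct arrays, and 66.0, 52.6 and 60.5 on the TEB arrays. Stroma and TEBs overlapped (log2 difference 0.23, standard error 0.18, adjusted p = 0.30), and the sign of this difference turned to -0.16 with the percentile over all mouse miRNAs and to -0.02 without scaling.

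mmu-miR-494, from the middle of the run, had a pattern of its own. It was detected on all 3 TEB arrays, on stroma 1 and stroma 3, and on no duct array. Its scaled signal was 40.4, 14.6 and 42.4 on the stroma arrays, 15.3 and 5.72 on the duct arrays, and 26.0, 26.5 and 39.7 on the TEB arrays. Every TEB array lay above both duct arrays, while the mean of each of the other 8 tested members was lower in TEBs than in ducts, except that of miR-337-5p with the percentile over all mouse miRNAs, after quantile normalization and in the authors' normalized values. The geometric mean level in TEBs was at least 3.22-fold that in ducts, where the probe's own signals, not well above background, set the value (adjusted p = 0.069 from limma). Without duct 1 this was 5.27-fold and without duct 2 it was 1.97-fold. The adjusted p from limma for TEBs against ducts depended on the scaling. It was 0.027 with the percentile over all mouse miRNAs, 0.046 after quantile normalization and 0.039 in the authors' normalized values. Without scaling it was 0.095, and with the replicate number as a block it was 0.086. This miRNA entered the tests only because every TEB array detected it, and stroma and TEBs did not differ beyond their spread (log2 difference -0.04, standard error 0.54, adjusted p = 0.95).

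**Figure D3:**
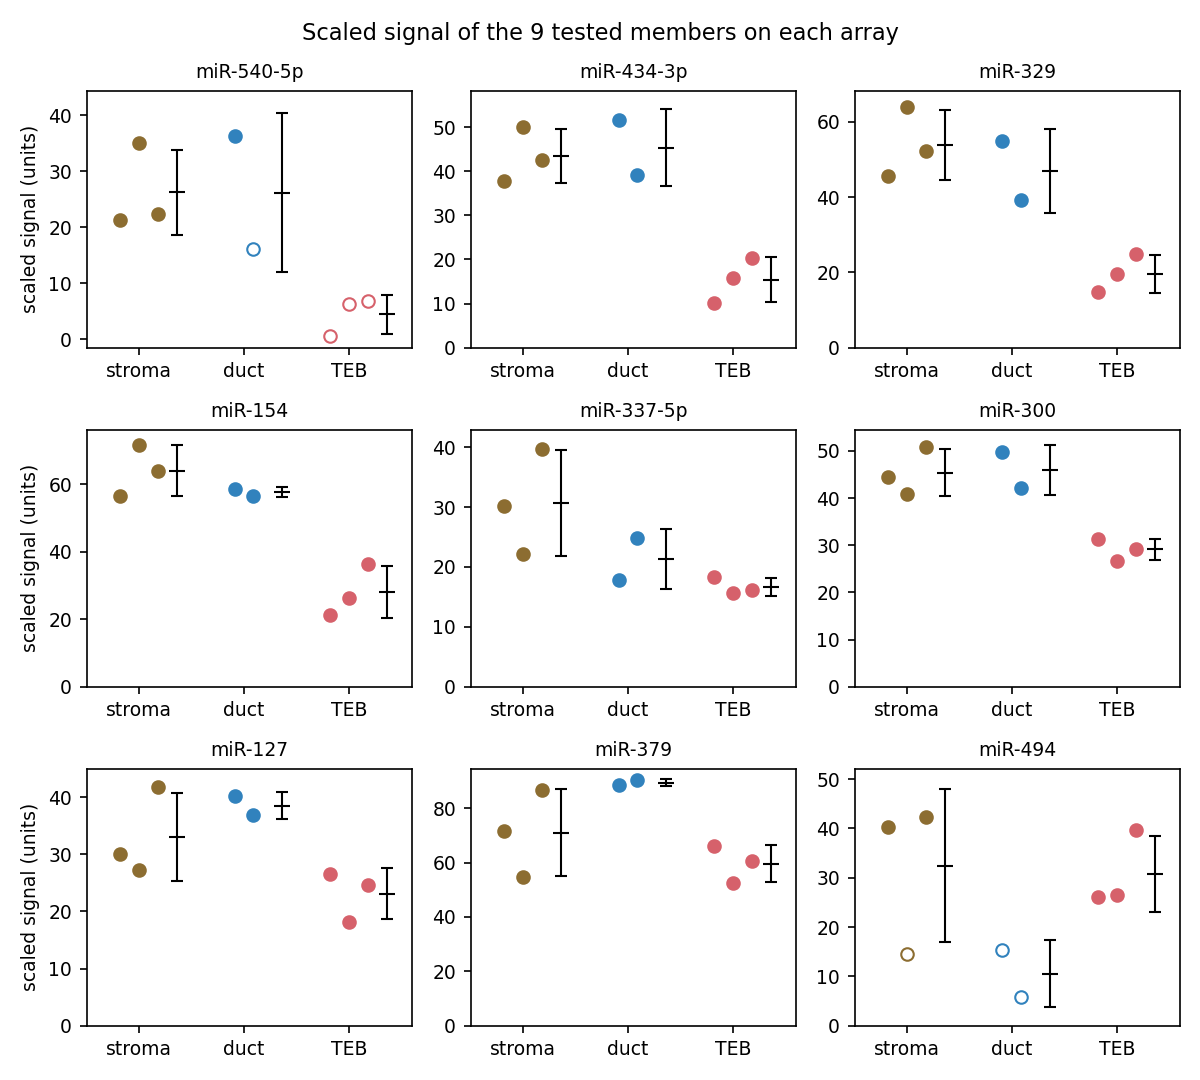
Scaled signal in units (y axis, from 0) of the 9 tested members on each array, by tissue (x axis). Filled points were detected and open points were not, and black bars give the mean and SD of a tissue (n = 3, 2 and 3). For miR-434-3p, miR-329, miR-154 and miR-300 the TEB points lie below all others, and for miR-494 both duct points and 1 stroma point are the lowest.

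miR-410 and miR-376a were detected on too few arrays to be tested. miR-410, the last member of the run, was detected on duct 2, TEB 1 and TEB 2, at unscaled signals of 32.9, 18.9 and 19.2 units. It was not detected on duct 1 at 39.2 units or on the stroma arrays at 21.8, 14.1 and 18.7 units. Its signal on duct 1, although not detected, was thus above that on every array on which it was. miR-376a was detected on duct 2 only, at 11.3 units.

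Of the 9 tested members, 6 were higher in stroma than in TEBs at an adjusted p under 0.05 and none was lower. Over all 167 tested miRNAs, 44.3% were higher in stroma (74 miRNAs) and 34 were lower. Since miR-540-5p and miR-494 were tested only through the tissue in which all arrays detected them, the 7 members detected everywhere are also given: 5 of 7 were higher in stroma, against 48.1% of the 108 miRNAs detected on all arrays (52 miRNAs). The median log2 difference was 0.84 over the 7 members and 0.32 over the 108 miRNAs, and it was 0.28 over all 167. With the percentile over all mouse miRNAs the counts over all tested miRNAs were 28 higher and 38 lower, with a median of -0.12, and 4 of 9 members were higher. Those 4, miR-154, miR-329, miR-434-3p and miR-540-5p, were also the calls after quantile normalization and without scaling. Without overlap between arrays, 7 of 9 members (the 6 and miR-127) were higher on every stroma array than on any TEB array, against 48.5% of all tested miRNAs. This count and this share include miRNAs not detected in all tissues, such as miR-540-5p.

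Between TEBs and ducts, 4 of 9 members differed, and all 4 were higher in ducts, namely miR-434-3p, miR-329, miR-154 and miR-300. Over all tested miRNAs, 13.2% were higher in ducts (22 miRNAs) and 19 were higher in TEBs. All 4 are among the 7 members detected everywhere, and 13.0% of the 108 miRNAs detected on all arrays were higher in ducts (14 miRNAs). The log2 difference of TEBs minus ducts was -1.60 for miR-434-3p (standard error 0.30, adjusted p = 0.015). It was -1.27 for miR-329 (standard error 0.27), -1.08 for miR-154 (standard error 0.23) and -0.66 for miR-300 (standard error 0.14), each with an adjusted p of 0.020. These are levels 3.03-fold, 2.41-fold, 2.11-fold and 1.58-fold higher in ducts.

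Of the remaining members, miR-127 had a log2 difference of -0.75 (adjusted p = 0.055), miR-379 one of -0.59 (adjusted p = 0.066), and miR-337-5p one of -0.34 (adjusted p = 0.37). For miR-540-5p, not detected in TEBs, the adjusted p was 0.055. Both duct arrays lay above all 3 TEB arrays for 7 of 9 members, all but miR-337-5p and miR-494, against 43.1% of all tested miRNAs. Count and share again include miRNAs not detected in all tissues, such as miR-540-5p. The median log2 difference of TEBs minus ducts was -0.75 over the 7 members and -0.10 over the 108 miRNAs detected on all arrays.

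The comparison with ducts has only 2 duct arrays and turned on single libraries. The count of 4 became 0 without duct 1 and 0 without TEB 2, where the adjusted p of the same 4 members ran from 0.054 to 0.072, and it became 7 without TEB 1 and 7 without stroma 2. The scaling also mattered. With the percentile over all mouse miRNAs the log2 difference of TEBs minus ducts became -0.72 for miR-329, -0.53 for miR-154 and -0.11 for miR-300, and each lost its call (adjusted p = 0.071, 0.17 and 0.76). miR-300 lost it as well after quantile normalization (-0.28, adjusted p = 0.20) and in the authors' normalized values (-0.23, adjusted p = 0.21), where the difference for miR-329 was -0.60 and that for miR-434-3p -0.87. With the percentile over all mouse miRNAs 1 member, miR-494, was higher in TEBs and 1, miR-434-3p, in ducts. The counts over all tested miRNAs then became 24 higher in TEBs and 6 higher in ducts, with their median at 0.45. Without scaling 7 members and 63 of all tested miRNAs were higher in ducts, with a median of -0.47 over all tested miRNAs.

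Stroma and ducts did not differ for any of the 9 members at an adjusted p under 0.05 from limma, against 21.6% of all tested miRNAs called in either direction (36 miRNAs). At an unadjusted p under 0.05 there was 1 member, miR-494, and the methods' t-test gave 0. Of the 7 members detected everywhere 0 were called, against 22.2% of the 108 miRNAs detected on all arrays, with medians of -0.02 and 0.11. The intervals show how far equality was measured: the 95% interval of stroma minus ducts on the log2 scale was narrowest for miR-300, at -0.35 to 0.32. It was -0.40 to 0.70 for miR-154, -0.45 to 0.86 for miR-329 and -0.79 to 0.67 for miR-434-3p. For miR-540-5p, detected on 1 of the 2 duct arrays, it was -2.02 to 2.18, which leaves room for large differences in either direction. miR-494, detected on 2 of 3 stroma arrays, was at least 3.12-fold higher in stroma than in ducts, where it was not detected (adjusted p = 0.11), and 5.11-fold without duct 1 or 1.91-fold without duct 2.

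**Figure D4:**
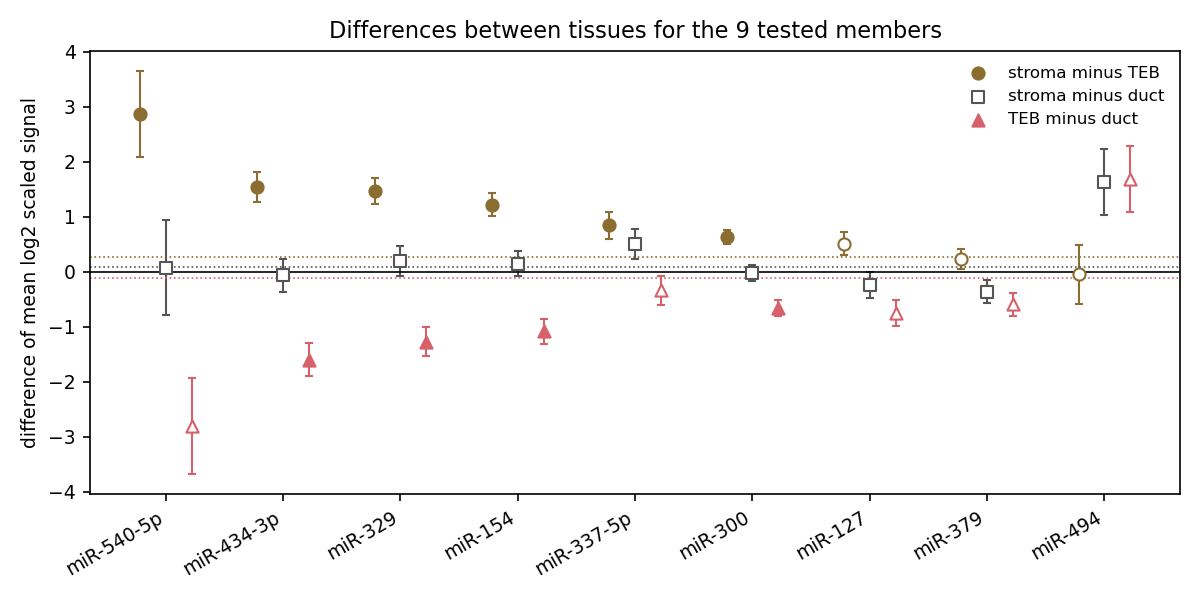
Difference of mean log2 scaled signal (y axis) for each of the 9 tested members (x axis), with bars of 1 standard error from limma. Filled symbols had an adjusted p under 0.05, and the dotted lines give the median of all 167 tested miRNAs in the comparison of the same colour. Values of miR-540-5p against TEBs and of miR-494 against ducts rest on signals that were not detected in those tissues and are not measured sizes. Of the 7 members detected everywhere, those from miR-434-3p to miR-154 lie furthest from the dotted lines in both comparisons with TEBs, and all squares, stroma minus duct, are open.

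Set against the mean of both epithelial fractions, 4 of 9 members were higher in stroma, against 25.7% of all tested miRNAs (43 miRNAs). All 4 are among the 7 detected everywhere, and 37.0% of the 108 miRNAs detected on all arrays were higher in stroma (40 miRNAs). The log2 differences were 0.84 for miR-329, 0.74 for miR-434-3p, 0.68 for miR-154 and 0.68 for miR-337-5p, with adjusted p of 0.022, 0.047, 0.024 and 0.042. The median was 0.68 over the 7 members and 0.25 over the 108 miRNAs. For no member did all stroma arrays lie above all epithelial arrays, because the duct arrays reached the level of stroma. In exact two-sided permutation tests of the 3 stroma against the 5 epithelial arrays, over 9 tests, the smallest p was 0.071, for miR-154 and for miR-337-5p, where the design allows 0.036. This count fell to 0 without stroma 3, to 1 without stroma 2, duct 1, duct 2 or TEB 2, and to 2 without stroma 1 or TEB 1.

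Set against the mean log2 signal of the 7 members on the same array, a member's level does not depend on the factor by which the array is scaled, and these relative levels were not tested. From TEBs to stroma, miR-434-3p gained 0.62 and miR-329 gained 0.55 on the log2 scale relative to that mean, and miR-154 gained 0.30. Relative to the same mean miR-379 fell by 0.69, miR-127 fell by 0.41 and miR-300 fell by 0.28, while miR-337-5p fell by 0.08, less than its spread between arrays. Since the mean is that of the same 7 members, their relative changes cancel out, so some must fall where others gain. By scaled signal miR-379, miR-127 and miR-300 did not fall: their log2 differences of stroma minus TEBs were 0.23, 0.51 and 0.64. The relative level of miR-379 averaged 1.29 ± 0.22 over the TEB arrays and 0.60 ± 0.24 over the stroma arrays (SD, n = 3 each). That of miR-434-3p averaged -0.72 ± 0.39 over the TEB arrays and -0.10 ± 0.25 over the stroma arrays (SD, n = 3 each).

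Of the other strands and further miRNAs of the locus, 21 were on the array and were listed separately from the members. On all 8 arrays 1 was detected, miR-299*, although miR-299 itself was not detected on any. A further 2 were detected on some arrays: miR-485* on all stroma and all duct arrays but on none from TEBs, and miR-1193 on stroma 2 alone at 27.0 units unscaled. The remaining 18 were detected on none. Both tested sequences are shown because their unstarred partners were not detected.
mmu-miR-299*, chr12:109710676-109710697: uAUGUGGGacgguaaaccgcuu
mmu-miR-485*, chr12:109734946-109734967: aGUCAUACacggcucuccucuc

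miR-299* had the pattern of miR-434-3p, miR-329, miR-154 and miR-300, which not all members shared. Its scaled signal was 47.6, 57.9 and 58.1 on the stroma arrays, 57.9 and 54.2 on the duct arrays, and 20.8, 27.0 and 32.4 on the TEB arrays. All TEB arrays were below all others, at a log2 difference of stroma minus TEBs of 1.05 (standard error 0.18, adjusted p = 0.0032) and of TEBs minus ducts of -1.09 (standard error 0.20, adjusted p = 0.015). miR-485* gave 37.2, 64.6 and 36.9 on the stroma arrays, 56.1 and 28.3 on the duct arrays, and 1.98, 10.7 and 15.6 on the TEB arrays. By geometric means this was at least 6.37-fold higher in stroma than in TEBs (adjusted p = 0.022) and at least 5.69-fold higher in ducts than in TEBs (adjusted p = 0.066). Without TEB 1 these were at least 3.46-fold and 3.09-fold. miR-485* entered the tests only because every stroma array and every duct array detected it.

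Among marker miRNAs of other cell types, those of endothelium and of red cells also had their lowest sums in TEBs. The 2 endothelial miRNAs summed to 2765 to 3863 scaled units in stroma, 1927 and 2061 in ducts and 1315 to 1650 in TEBs, with 1 of 2 detected on every array. The 2 red cell miRNAs (miR-144 and miR-451) summed to 1988 to 3577 in stroma, 2591 and 3276 in ducts and 1370 to 1902 in TEBs. Both were detected on every stroma and duct array, but only 1 of 2 on every TEB array. The 4 skeletal muscle miRNAs summed to 31.2 to 60.2, to 56.1 and 178.6, and to 17.1 to 89.5 in the same tissues, with miR-206 not detected. The 5 leukocyte miRNAs summed to 562.7 to 679.1, to 361.1 and 383.7, and to 296.1 to 449.5, with 2 of 5 detected on every array. The part of these cells in the differences of the cluster miRNAs was not tested.

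On the slide the arrays were set in 2 rows, and all tissues were present in each row. Within row 1 the log2 difference of stroma minus TEBs was 1.58 for miR-434-3p, 1.43 for miR-329, 1.26 for miR-154, 0.62 for miR-300 and 0.84 for miR-337-5p. Within row 2 these were 1.18, 1.22, 0.90, 0.64 and 0.88 in the same order. The TEB signals of miR-540-5p were below its stroma signals in both rows. For TEBs minus ducts, the row 1 and row 2 values were -2.03 and -0.95 for miR-434-3p, -1.69 and -0.66 for miR-329, -1.31 and -0.64 for miR-154, and -0.78 and -0.53 for miR-300. For stroma minus the mean of both epithelial fractions they were 0.58 and 0.89 for miR-329, 0.56 and 0.71 for miR-434-3p, 0.60 and 0.58 for miR-154, and 0.80 and 0.57 for miR-337-5p. Row 1 held 1 stroma, 1 duct and 2 TEB arrays, and row 2 held 2 stroma, 1 duct and 1 TEB array. Each of these differences kept its direction within both rows. For stroma against TEBs and for TEBs against ducts no other outcome was possible, since the arrays of the tissues compared did not overlap for these members.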

How the data were processed

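The authors deposited total signal intensities of an Agilent single-colour mouse miRNA array, summed over the probes of each miRNA and background-subtracted by Agilent Feature Extraction 9.5.3 (per the labels), with a detection flag and no normalization between arrays. Their log2 value table, deposited with the steps unstated, kept the rank order of these signals above 1 unit, the range in which the order was compared. Above the lowest, tied values it had the same values at the same ranks in all columns, as quantile normalization gives. Its column medians were 0.14 to 1.48, its centring is unknown, and it served as an alternative.

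Viral miRNAs (39) and control probes (22) were left out. Each array was multiplied (factors 0.75 to 1.36) so that its 75th percentile over the 108 mouse miRNAs detected on all 8 arrays was the same. Signals under 1 were set to 1, log2 values taken, and the tissues, grouped by their labels, compared in a single linear model of the 8 arrays with moderated variances (limma 3.58.1 under R 4.3.3), with Benjamini-Hochberg adjustment within each of 4 comparisons at 0.05. Stroma was also compared with the epithelial arrays by exact permutation (scipy 1.17.1). Fold bounds were used where a miRNA was not detected in a tissue. Members detected in a whole tissue are given by array, those detected on fewer arrays by their detected signals, and the rest by range. The procedure was tested on simulated data. The files give no counts, and the number of arrays limits the precision. The members, gene lists and markers were chosen with earlier results of these data known. The pairing of replicate numbers, other scalings, floors, filters, fits and left-out arrays were tried as alternatives.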

Additional observations from a re-analysis of the deposited data

How the results depend on the processing

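No called difference changed direction. The count of members higher in stroma than in TEBs, 6 of 9, was 4 to 9 under all alternatives and 5 to 6 when an array was left out. miR-154, miR-329 and miR-434-3p passed this test under each of them. The log2 difference of miR-540-5p there, 2.88 with undetected TEB signals, was 1.95 without TEB 1 and 1.33 in the authors' normalized values. For stroma against ducts the count of 0 became 3 without scaling and 2 with normexp (offset 50), and 0 to 1 when an array was left out, the 1 without stroma 2. For TEBs against ducts the count of 4 became 2 with the percentile over all mouse miRNAs, 7 without scaling, 7 when 16 was added in place of the floor, 1 with normexp, 0 without a detection filter, 2 in a fit of only the tissues compared, 0 by the methods' t-test after Benjamini-Hochberg, and 0 to 7 when an array was left out. For stroma against both epithelial fractions the count of 4 became 1 with the percentile over all mouse miRNAs, 0 without scaling, 8 with normexp, 0 without a detection filter, 2 among miRNAs detected on at least 1 array, 2 with the slide row as a covariate, 2 with a trend and robust estimation, 1 by the methods' t-test at P below 0.05, 0 after Benjamini-Hochberg, and 0 to 3 when an array was left out. Without a detection filter many floored signals had no variance, so limma's spread estimate is unreliable there. Of 331 alternative values for the 14 called differences of single members, 235 kept the call, 96 lost it and 0 turned; the cause was not tested.

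Arrays of different tissues that shared a replicate number showed no common deviation (mean r of -0.10 over 7 pairs, from -0.51 to 0.36, against 0.05 over 14 pairs of unlike number). With so few arrays this does not decide whether samples of equal number were related. With the replicate number as a block the counts were 7 for stroma against TEBs, 0 for stroma against ducts, 3 for TEBs against ducts and 1 for stroma against both epithelial fractions. Signals that overlap the range of the negative control probes limit the members, and 2 duct arrays limit every comparison with ducts.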
